A study of Homo sapiens with 18 samples.

Results

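Lung metastases of the human osteosarcoma cell line MNNG/HOS were compared with cells of its bone tumors, on Affymetrix arrays that read mRNA near its 3' end. The comparison holds 6 of the 18 arrays of the series, and its members were taken from the sample titles. The lung side has 2 arrays, MNNG-Lung 1233 (Lung 1233 below) and MNNG-Lung Mix (Lung Mix). The bone side, called Low here, has 4 arrays of the tumors MNNG-1231 and MNNG-1232 together with those of MNNG-1233 and MNNG-1235. High arrays of the same 4 tumors serve as a second bone group.

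MNNG/HOS is an established osteosarcoma line, and the cells on all of these arrays carried the fluorescent protein ZsGreen. They had been transplanted orthotopically, that is, to bone, into host animals whose species the labels do not name. PKH26 is a membrane dye that dividing cells dilute. Low cells were sorted for little PKH26 and are labelled bulk tumor cells, while High cells had kept the dye and are labelled tumor-initiating cells. The lung samples are labelled as metastases of the same orthotopic transplants, with no PKH26 class. The sources used here give neither the makeup of Lung Mix nor whether lung cells were sorted. Lung 1233 carries the number of 1 of the bone tumors. The series design names a further MNNG/HOS tumor, which was not analysed here. All samples derive from 1 cell line, and a p-value here measures the spread between these few arrays.

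Osteosarcoma is a bone cancer whose cells make collagen-rich matrix, and the lung is where it most often spreads. To get there a cell has to let go of matrix and neighbours through its integrins and proteases, survive in blood, and then divide in a tissue with other oxygen, other matrix and other host cells. Genes of adhesion, matrix, the epithelial-mesenchymal transition, the response to low oxygen and cell division are therefore the usual ones to set side by side in a metastasis and its tumor of origin.

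The lung arrays stood far apart from the bone arrays before any single gene was considered. Over 54675 probe sets, the Low arrays correlated with each other at 0.990 to 0.994. Lung 1233 correlated with them at 0.622 to 0.645, and Lung Mix at 0.493 to 0.514. Low arrays of MNNG/HOS were closer than this to the Low arrays of 143B, the other osteosarcoma line of the series, at 0.963 to 0.973. The correlation between Lung 1233 and Lung Mix was 0.865. These correlations are descriptions over probe sets of one platform.

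Control probe sets moved with the lung group. The 3' probe set of ACTB, the cytoskeletal actin, read 11.06 on Lung 1233 and 9.63 on Lung Mix, against 13.62 to 13.73 on Low (all signals are log2). Its 5' probe set went the other way, with 13.22 and 12.59 in lung and 11.88 to 12.25 on Low. The 3' signal thus lay below the 5' signal by 2.16 and 2.97 on the lung arrays, and above it by 1.38 to 1.74 on Low. GAPDH, a glycolytic enzyme used as a labelling control, read 11.90 and 10.61 at its 3' end, against 14.27 to 14.36 on Low, and its 3' minus 5' differences were 0.45 and 0.94 in lung and 0.34 to 0.41 on Low. A probe set for the human Alu repeat read 14.45 and 13.36 in lung and 14.57 to 14.80 on Low. The bacterial spike bioB, a transcript added at hybridization, read 11.98 and 14.03 in lung and 8.74 to 8.94 on Low. Lung Mix lay farther from Low than Lung 1233 in all of these except the ACTB 5' signal. The interquartile range of all signals was 2.28 log2 units on Lung 1233 and 2.09 on Lung Mix, against 3.29 to 3.40 on Low and 2.76 to 3.18 on High. A two-sided exact permutation test of 2 arrays against 4 cannot give a p below 0.133, which each of these measures reached against Low (0.152 after adjustment over 16 tests). These control values move with the results that follow, and their part in them was not tested. In bulk RNA, fewer tumor cells and less RNA per tumor cell cannot be told apart.

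**Figure D1:**
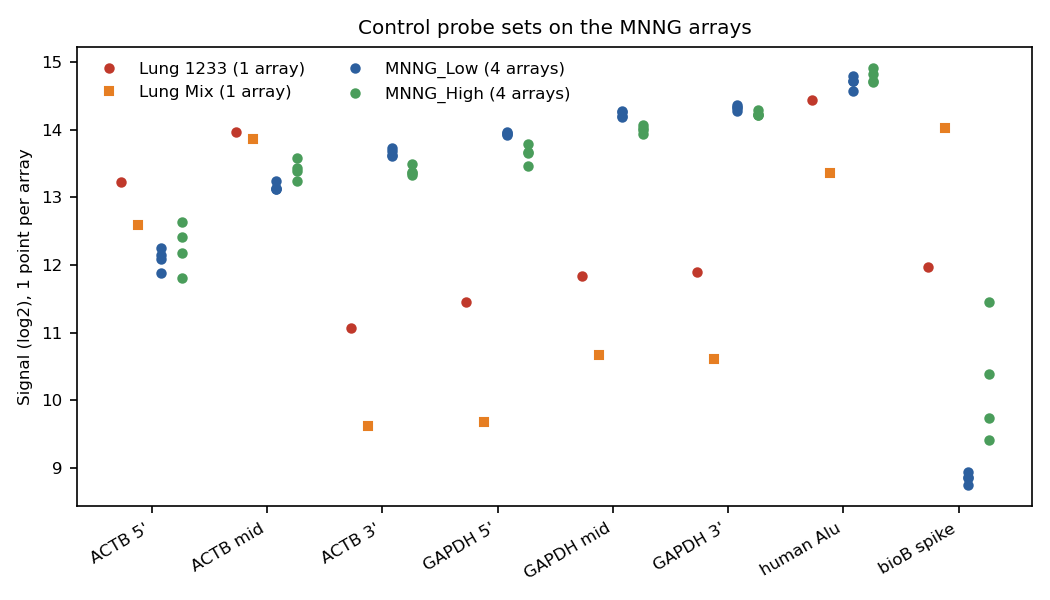
Signal (log2) of 8 control probe sets, 1 point per array, for Lung 1233, Lung Mix, MNNG_Low and MNNG_High. The ACTB 3' and GAPDH probe sets lie lower in lung than on every bone array, while ACTB 5' and middle and the bioB spike lie higher in lung than on every Low array.

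Most genes differed between lung and Low. Of 15423 genes tested, limma called 13125 at an adjusted p under 0.05 (85.1%). In lung 7160 genes were lower (46.4%) and 5965 were higher (38.7%). The groups did not overlap for 13450 genes (87.2%). Any count of list members below has to be read against those shares. Only MNNG-1231 Low shares the date tag of the lung arrays in the labels, and with that single Low array limma called 5607 genes, 4345 lower and 1262 higher. In that fit the spread comes from the 2 lung arrays alone, and the lone Low array is assumed to vary as they do. At least 4-fold lower were 31.0% of genes, and at least 4-fold higher 8.08%. The median over all genes tested was -0.36 as deposited, 0.10 after a second quantile normalization and -0.91 after centring each array on its median. The second quantile normalization turned the sign of 567 of the 7160 lower genes and of 0 of the 5965 higher ones.

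The difference followed the level of a gene in the bone tumor cells. The genes tested were put into 10 bands of equal size by their Low mean. In band 1, with the lowest Low means, the median difference was 1.83 and 99.8% of genes were higher in lung. Genes so dim on Low passed the filter mainly where their lung signals reached 5.36. The share and median of band 1 are therefore largely fixed by the filter. Without the filter, 84.7% of genes with a Low mean under 5.36 were called higher, with a median difference of 1.28. In band 10, with Low means from 10.34 upward, the median was -4.17 and 91.7% were lower. The sign turned in band 5, with Low means of 6.57 to 7.22 and a median of -0.09. Both lung arrays had this shape, with medians in band 10 of -3.48 for Lung 1233 and -4.66 for Lung Mix. Over all genes on the array with a Low mean under 5.36, the median of the table, the median level was 4.06 on Low, 5.26 on Lung 1233 and 5.39 on Lung Mix. No detection call was used. Where one side lies under 5.36, the size of a difference is uncertain. A rise from under 5.36 also shares its direction with most dim genes, and its cause was not tested.

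**Figure D2:**
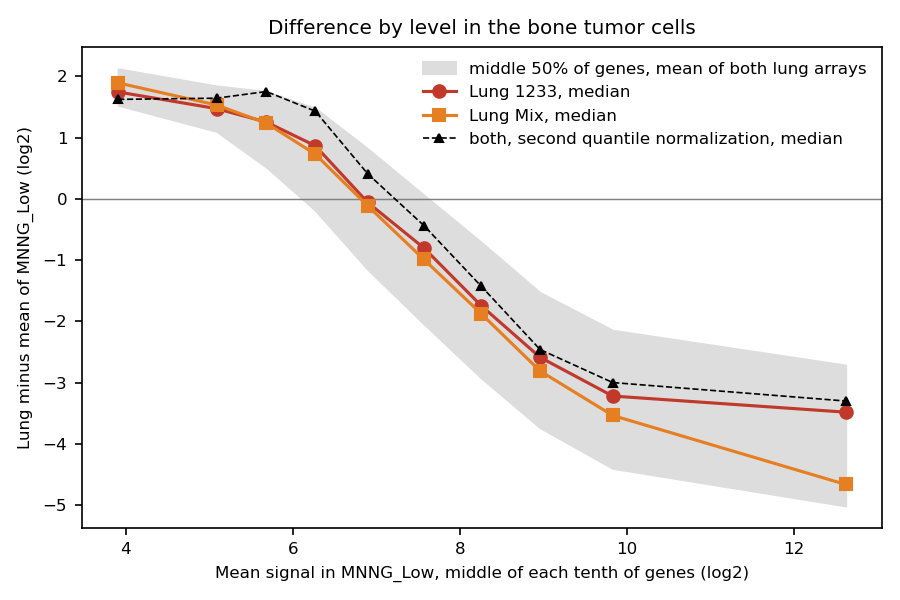
Median difference of each lung array from the Low mean (log2), and of both after a second quantile normalization, in 10 equal bands of the genes tested ordered by their mean signal on Low. The shading spans the interquartile range of the genes, and the medians run from above 0 in band 1 to below -3 in band 10. Genes of band 1 passed the filter mainly through their lung values, so its median is largely fixed by the filter.

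The 12 genes with the largest falls included BNIP3, a mitochondrial protein that marks mitochondria for removal and is a classic target of the hypoxia factor HIF. BNIP3 read 11.92 to 12.60 on the 4 Low arrays, and 5.28 on Lung 1233 and 4.92 on Lung Mix, a difference of -7.24 ± 0.23 (SE of the limma fit, n = 2 and 4). Each of the 12 genes lay under 5.36 on at least 1 lung array, so the size of these falls is uncertain. LAMB1, a chain of the laminins of basement membranes, read 11.37 to 11.71 on Low and 5.44 and 3.91 in lung (-6.90 ± 0.39). FERMT2, a kindlin that activates integrins, read 11.48 to 12.11 on Low and 5.87 and 3.99 in lung (-6.87 ± 0.49). For each of these genes the lung arrays lay far below the lowest Low array.

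FAM3C, a secreted protein tied to the epithelial-mesenchymal transition, read 11.26 to 11.56 on Low and 4.40 and 4.27 in lung (-7.09 ± 0.16). MAFF, a small Maf transcription factor, read 10.65 to 11.09 on Low and 3.98 and 3.76 in lung (-7.04 ± 0.19). The prion protein gene PRNP read 11.21 to 11.64 on Low and 3.22 on Lung Mix, with a lung mean of 4.46 (-6.94 ± 0.60). FAM3C and MAFF were alike on both lung arrays, while PRNP was lower on Lung Mix. Others of the 12 serve general cell work. The histone chaperone gene ANP32E fell by 7.09, SEC23A of the vesicle coat that leaves the endoplasmic reticulum by 6.88, BCAT1 of branched-chain amino acid metabolism by 6.85, BZW1 of translation control by 6.75 and TOMM20 of mitochondrial protein import by 6.73. Other tested probe sets of the 12 genes also lay below all Low arrays but fell less. The smallest probe set difference was -0.53 for SEC23A, -0.54 for PRNP, -1.62 for MAFF and for BCAT1, -1.90 for BZW1 and -2.60 for FAM3C. For ANP32E and LAMB1 it was -5.10 and -5.13. The mean over probe sets differed by -3.22 for FAM3C, -3.74 for PRNP and -3.70 for SEC23A. SRP9, a subunit of the signal recognition particle that also binds Alu RNA, differed most between the lung arrays. It read 13.02 to 13.11 on Low, 8.52 on Lung 1233 and 3.39 on Lung Mix (-7.11 ± 1.20). Its adjusted p was 0.000978 against all of Low. Against MNNG-1231 Low alone, an arm of 1 array, the difference was -7.06 with an adjusted p of 0.0536.

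The 12 genes with the largest rises were a mixed group. RNF5, an endoplasmic reticulum ubiquitin ligase, read 6.19 to 7.06 on Low and 12.08 and 11.79 in lung (5.31 ± 0.32, 39.8-fold). It has a near-identical pseudogene, so the source of its signal is uncertain. CELF2, an RNA-binding regulator of splicing, read 6.46 to 7.90 on Low and 12.37 and 12.35 in lung (5.27 ± 0.38). ATP6V0D2, a proton pump subunit that osteoclasts use, read 6.14 to 6.48 on Low and 11.27 and 11.36 in lung (5.02 ± 0.16). Both lung arrays lay far above all Low arrays for these genes.

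KCNA3, a voltage-gated potassium channel of lymphocytes and other cells, read 4.12 to 4.38 on Low and 8.52 and 8.81 in lung (4.42 ± 0.17). KCNA3 and RNF180 lay under 5.36 on all Low arrays and passed the filter only through their lung values. NFIA reached 5.36 only on MNNG-1231 Low (5.40) among the Low arrays, so it too needed its lung values to pass. PLK3, a stress-responsive polo-like kinase, read 6.61 to 6.75 on Low and 11.10 and 10.57 in lung (4.13 ± 0.19). HBE1, the embryonic epsilon globin, read 10.46 ± 0.34 (SD, n = 4) on Low and 14.44 and 13.93 in lung (3.73 ± 0.26). HBE1 was thus well above the median of the table on the bone arrays too. The other named rises were the transcription factors NFIA (4.01), THRA (3.69) and ZEB2 (3.69), the mRNA polyadenylation factor CPEB4 (4.02), the ubiquitin ligase RNF180 (3.85) and SH3TC1 (3.67). Several of these genes have probe sets that disagree. For CELF2 all 3 probe sets lay above Low, from 1.21 to 5.27, and the mean over them differed by 2.29. For PLK3, 2 of 3 lay above all Low arrays, from -0.17 to 4.13, with a mean over probe sets of 1.62. For CPEB4, 2 of 4 probe sets lay above all Low arrays and 2 below, from -3.71 to 4.02, and the mean over its probe sets differed by 0.28 with an adjusted p of 0.117. For ZEB2, 2 of 3 lay above and 1 below, from -1.77 to 3.96, with a mean over probe sets of 1.55. That mean was also smaller than the named rise for SH3TC1 (2.78), HBE1 (2.55), NFIA (2.39) and THRA (2.03). It was larger for ATP6V0D2 (5.28). Such disagreement was common. Of 7372 genes with several probe sets tested, 2098 (28.5%) had a probe set above and another below all Low arrays.

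**Figure D3:**
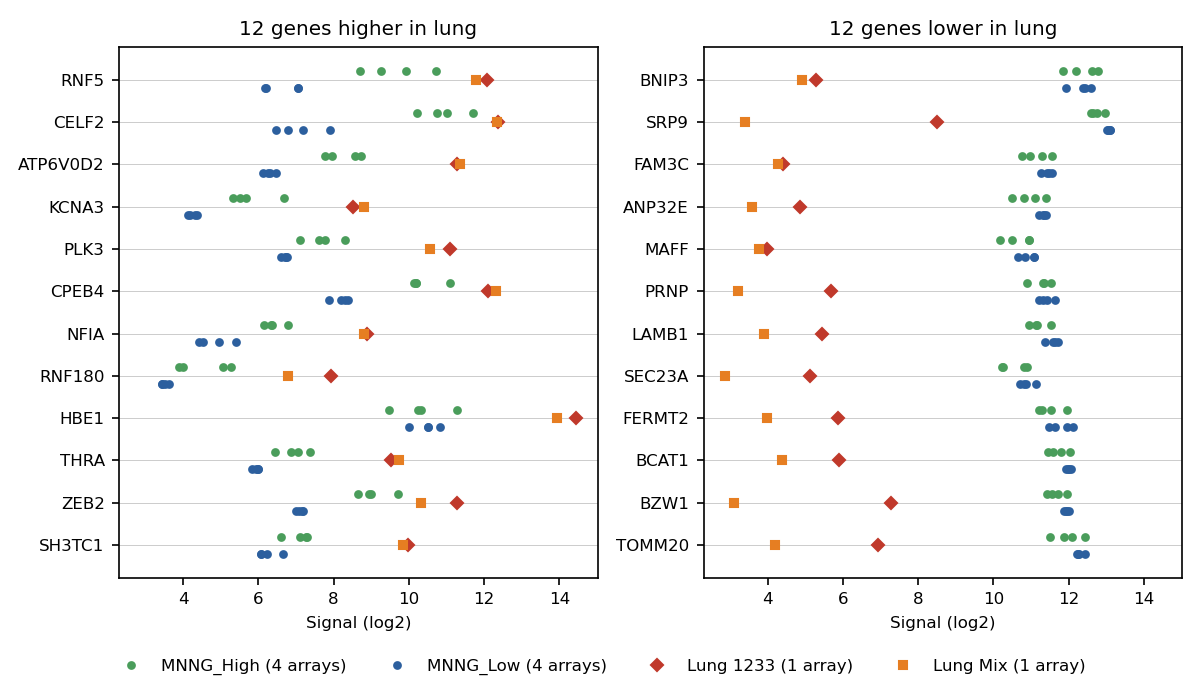
Signal (log2) on each array of the 12 genes with the largest rises and the 12 with the largest falls in lung against MNNG_Low, with 1 marker per lung array and the 4 MNNG_Low and 4 MNNG_High arrays beside them. High lies between Low and lung for most of the higher genes and beside Low for the lower genes, and SRP9 is the gene on which the lung arrays differ most.

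Lung 1233 and MNNG-1233 Low carry the same number, which allows a difference within 1 pair, with no test. Its sign was fixed in advance for the 24 named genes, since the rule kept only genes without overlap between lung and Low. Only the sizes are therefore given. BNIP3 differed by -6.64, FAM3C by -7.16 and LAMB1 by -6.27, and SRP9, at -4.58, by less than over both lung arrays. ATP6V0D2 differed by 4.95, CELF2 by 5.18 and HBE1 by 4.43.

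The factor HIF, which drives the response to low oxygen, is held down by oxygen-dependent prolyl hydroxylation, and when oxygen is short it raises genes of glucose uptake, glycolysis and collagen hydroxylation. Of 31 members tested, 25 fell, 24 of them at least 4-fold, and 0 rose. The list median was -3.89, beside -4.17 for all genes in the band of the list's Low level, of which 91.7% fell, so the list was not lower than its band. P4HA1, a collagen prolyl hydroxylase subunit, read 10.84 to 10.98 on Low and 5.31 and 5.29 in lung (-5.58 ± 0.14). The glucose transporter gene SLC2A3 read 10.39 to 10.67 on Low and 4.94 and 5.49 in lung (-5.35 ± 0.20), and the glycolytic isomerase gene GPI 10.64 to 10.84 on Low and 6.85 and 6.94 in lung (-3.85 ± 0.15).

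Some HIF targets did not pass the test. VEGFA, the main angiogenic growth factor, read 10.14 to 10.58 on Low and 10.59 and 10.15 in lung (-0.03 ± 0.20, adjusted p = 0.88). BNIP3L, the paralog of BNIP3, read 10.40 to 10.54 on Low and 10.25 and 10.06 in lung (-0.32 ± 0.15). ANGPTL4, a regulator of lipid uptake (-0.12 ± 0.27), and the glycolytic genes ALDOC (-0.14 ± 0.15), PFKFB4 (0.12 ± 0.22) and PFKL (-0.38 ± 0.54) did not pass the test either. After the second quantile normalization these genes lay above Low, VEGFA by 1.74 and BNIP3L by 1.48. They were singled out after their values were seen. The groups overlapped for VEGFA and not for BNIP3L.

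The promoter of BNIP3 is shown because it heads the list and carries the core of a hypoxia response element. It is on the minus strand of chr10:131981924-131982173 in GRCh38.p14 (RefSeq), the 250 bases before the gene's start, printed 5' to 3' in the direction of transcription. Capitals mark matches to ACGTG on either strand, which here overlap in 1 palindrome.
BNIP3: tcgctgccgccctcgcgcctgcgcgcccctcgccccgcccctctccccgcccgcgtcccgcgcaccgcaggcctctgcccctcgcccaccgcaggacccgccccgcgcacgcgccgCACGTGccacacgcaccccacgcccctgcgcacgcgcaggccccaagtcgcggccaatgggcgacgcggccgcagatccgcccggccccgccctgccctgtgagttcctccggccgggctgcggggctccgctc
Of the 28 list members with a promoter in the table, 14 held ACGTG on either strand, against 18.5% of all 35116 promoters of that length. The list count takes only the first promoter of each gene, and the share takes every promoter. The list was chosen from textbook knowledge of hypoxia genes, so these counts describe the list and not the arrays. A match is a run of letters and not a shown binding site.

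Mitosis and DNA replication genes were lower with few exceptions. Of 30 mitosis genes tested, 28 fell, 27 at least 4-fold, and of 32 DNA replication genes 31 fell, 24 at least 4-fold. The mitosis median was -4.08 beside -2.70 for all genes in the band of its Low level, and it was -4.20 after the second quantile normalization. The DNA replication median was -2.93 beside the same -2.70. Among all genes tested with a Low mean of at least 9, 91.5% fell.

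ANLN, the anillin of the cleavage furrow, read 9.79 to 10.27 on Low and 4.35 and 3.73 in lung (-5.98 ± 0.23). DLGAP5, a spindle assembly factor, read 9.48 to 9.72 on Low and 3.79 and 3.92 in lung (-5.76 ± 0.15). MAD2L1 of the spindle checkpoint read 10.24 to 10.90 on Low and 5.24 and 4.81 in lung (-5.51 ± 0.23). All of these lung values lie under the median of the table. On the replication side, the licensing inhibitor gene GMNN fell by 4.49, the replication factor gene MCM10 by 3.98, the uracil glycosylase gene UNG by 3.86 and the clamp loader gene RFC4 by 3.14. PLK1, a mitotic kinase, went against its list. It read 5.80 to 6.26 on Low and 6.50 and 7.32 in lung, and rose by 0.81 ± 0.26 (adjusted p = 0.0222). Those Low values lie in bands 3 and 4, where the median difference of all genes was 1.25 and 0.81. The rise of PLK1 was thus not larger than that of genes of its level. CENPA, the centromeric histone, differed by -0.30 ± 0.27 and did not pass the test. Of the mitosis genes, 16 of 30 reached 5.36 on Lung 1233 and 9 on Lung Mix, against 30 on each Low array.

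The ANLN promoter is shown for the cell cycle homology region, a motif written TTTGAA that many mitotic genes share. It is the 250 bases before the start of the gene on the plus strand, chr7:36389612-36389861 in GRCh38.p14 (RefSeq), with matches to TTTGAA on either strand in capitals, here side by side without overlap.
ANLN: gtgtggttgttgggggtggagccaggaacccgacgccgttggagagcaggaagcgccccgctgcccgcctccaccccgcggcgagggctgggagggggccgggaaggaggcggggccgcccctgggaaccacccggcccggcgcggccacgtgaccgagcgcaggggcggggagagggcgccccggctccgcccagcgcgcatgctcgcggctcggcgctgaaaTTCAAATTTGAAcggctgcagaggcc
Of the 26 mitosis genes with a promoter in the table, 15 held TTTGAA on either strand, against 13.3% of all promoters. The counts were made as for the hypoxia list and have the same limits.

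Matrix genes were lower in lung. Of 18 genes for matrix proteins tested, 15 fell at least 4-fold and 1 rose, with a median of -3.97 beside -3.39 for the band of their Low level. LOXL2, which cross-links collagen, read 10.09 to 10.33 on Low and 5.87 and 5.37 in lung (-4.58 ± 0.19). COL5A1, a chain of fibrillar collagen V, read 10.65 to 11.25 on Low and 6.94 and 6.39 in lung (-4.27 ± 0.23), and COL12A1 fell by 4.41. The basement membrane collagen gene COL4A2 read 10.58 to 11.59 on Low and 7.11 and 7.02 in lung. DCN, for the small proteoglycan decorin, was the gene that rose. It read 5.80 to 6.04 on Low and 7.68 and 8.10 in lung (1.98 ± 0.18). COL3A1 (-0.68 ± 0.46) did not pass the test, and its difference was 1.18 after the second quantile normalization. Some matrix genes differed widely between the lung arrays. COL6A1 read 9.13 on Lung 1233 and 4.57 on Lung Mix, against 12.52 to 12.76 on Low.

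Among 24 integrin, laminin and focal adhesion genes, 16 fell and 5 rose, with a median of -1.79 beside -1.80 for the band of their Low level. The integrin subunit gene ITGAV read 10.88 to 11.27 on Low and 5.89 and 4.52 in lung (-5.86 ± 0.36). PTK2, the focal adhesion kinase, read 9.78 to 10.35 on Low and 5.28 and 4.51 in lung (-5.15 ± 0.26), and the laminin chain gene LAMC1 fell by 5.15. In the other direction, the integrin-linked kinase gene ILK read 8.65 to 8.95 on Low and 10.57 and 10.59 in lung (1.75 ± 0.15), and ITGA11, ITGB4, LAMA5 and TLN1 also rose, by 0.98 to 1.87, with LAMA5 overlapping between the groups.

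Of 18 matrix proteases and inhibitors, 13 fell and 2 rose, with a median of -2.31 beside -3.39. The sheddase gene ADAM9 read 11.34 to 11.65 on Low and 6.05 and 5.98 in lung (-5.45 ± 0.16). Inhibitors fell too, with TIMP3 at -4.46 ± 0.21, SERPINE2 at -4.93 ± 0.32 and TIMP1 at -2.87 ± 0.19. The 2 rises were ADAM10, another sheddase (1.80 ± 0.23), and the gelatinase gene MMP9 (1.23 ± 0.22). MMP9 had a Low mean of 5.88, in band 3, where the median over all genes was 1.25 and 72.6% rose. PLAU, the urokinase gene, fell by 0.80 as deposited and differed by 0.47 after the second quantile normalization.

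The list of genes linked to osteosarcoma spread was mostly lower. Of 30 tested, 20 fell and 5 rose, with a median of -2.98 beside -3.39. EZR, for the membrane linker ezrin that osteosarcoma metastasis is best known for, read 11.05 to 11.43 on Low and 5.90 and 4.80 in lung (-5.90 ± 0.31). The growth factor receptor gene IGF1R read 9.35 to 10.02 on Low and 4.80 and 4.71 in lung (-4.82 ± 0.23), and IGF2R fell by 4.14 and NOTCH2 by 4.25. The 5 rises were IGF1, CXCL12, CXCR3, FAS and FASLG, of which FASLG and CXCL12 reached 5.36 on lung arrays and not on Low. The filter thus fixes the part of FASLG and CXCL12 in the count of rises. IGF1 read 5.95 to 6.42 on Low and 8.91 and 8.15 in lung (2.34 ± 0.25). The chemokine CXCL12 rose by 2.06 ± 0.31 while its receptor gene CXCR4 fell by 3.43 ± 0.44.

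Of 14 genes of the epithelial-mesenchymal transition, 10 fell and 1 rose, with a median of -2.47 beside -2.70. ZEB1 read 9.68 to 10.01 on Low and 5.71 and 4.94 in lung (-4.53 ± 0.24), TWIST1 fell by 4.74 and TWIST2 by 2.59, while ZEB2 rose on the probe set used. SNAI1 fell by 0.78 as deposited and was 0.46 higher after the second quantile normalization. E-cadherin, CDH1, was too dim to be tested, at a mean of 4.09 on Low and 4.90 and 4.24 in lung.

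The cell identity list checks the label. Of 18 mesenchymal and osteoblast genes, 15 were tested, 7 fell and 4 rose. Their median was -0.63 beside -1.80 for the band of their median Low level, in which 77.7% of all genes fell. The list holds genes as dim as ALPL (mean of 4.06 on Low) and as bright as VIM. A single band therefore does not match its members in level. VIM, the mesenchymal filament vimentin, read 14.53 to 14.57 on Low and 14.46 and 14.11 in lung (-0.27 ± 0.16, adjusted p = 0.15). COL1A2 (-0.12 ± 0.42) and CDH11 (-0.63 ± 0.35) did not pass the test, and lay 1.58 and 1.15 above Low after the second quantile normalization. RUNX2, the master factor of osteoblasts, read 9.97 to 11.09 on Low and 7.07 and 6.28 in lung (-3.83 ± 0.35). COL1A1 read 13.43 to 13.73 on Low, 11.59 on Lung 1233 and 6.38 on Lung Mix, and SPARC 11.78 to 12.82 on Low, 8.55 on Lung 1233 and 5.45 on Lung Mix. The osteoblast genes ALPL (1.97 ± 0.17) and IBSP (2.08 ± 0.22) rose from under 5.36 on Low. They are among the 3 of the 15 tested genes of the list that passed the filter only through the lung arrays, so their part in the count of rises is fixed by the filter. Vimentin was thus near the bone level in lung, while RUNX2, COL1A1 and SPARC lay below every Low array.

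Most genes of respiration, the ribosome and the proteasome fell, as did most genes of their Low level, and no median of these lists lay below that of its band. Of 37 oxidative phosphorylation genes tested, 36 fell, with a median of -4.13 beside -4.17 for the band of their Low level, and 4 of the 36 turned sign after the second quantile normalization. NDUFA9 of respiratory complex I read 10.45 to 10.82 on Low and 6.48 and 5.99 in lung (-4.40 ± 0.21), while SDHA of complex II differed by -0.05 ± 0.15. Of 27 cytosolic ribosomal protein genes, 26 fell, with a median of -3.15 beside -4.17. RPL3 read 14.01 to 14.13 on Low and 11.01 and 10.45 in lung (-3.31 ± 0.19), whereas RPLP1 fell by 0.63 and RPS12 by 0.65. Ribosomal protein genes have many processed copies, so their signals are uncertain. The list stood at a mean of 12.04 on Lung 1233 and 10.28 on Lung Mix, against 13.89 to 13.95 on Low. Of 25 proteasome genes 23 fell, with a median of -3.00 beside -4.17 that was -1.33 after the second quantile normalization, and 3 of the 23 turned sign after the second quantile normalization. PSMA1 fell by 3.74 and PSMD8 by 3.45.

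Of 18 cholesterol synthesis genes, 14 fell and 3 rose, with a median of -2.38 beside -2.70. INSIG1, a sterol sensor, read 10.03 to 10.54 on Low and 5.32 and 4.40 in lung (-5.34 ± 0.29), and the synthetic enzyme genes MSMO1 and SQLE fell by 5.47 and 4.70. MVK, for mevalonate kinase, rose by 2.12 ± 0.15. Of 24 unfolded protein response genes, 20 fell and 1 rose, with a median of -2.97 beside -3.39. ATF4, the central factor of the stress response, read 12.74 to 13.01 on Low and 9.70 and 10.06 in lung (-3.02 ± 0.17), and the disulfide isomerase gene PDIA3 fell by 2.91. CHAC1, which degrades glutathione and is a target of that factor, rose by 1.61 ± 0.17. The chaperone gene HSPA5 fell by 0.83 as deposited and was 0.46 higher after the second quantile normalization.

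Immediate early genes are switched on within minutes of a stimulus. Of 21 tested, 15 fell and 3 rose, with a median of -1.73 beside -4.17 for the band of their level, and 3 of the 15 (FOSL1, JUN and EGR1) turned sign after the second quantile normalization. KLF6 read 12.52 to 12.72 on Low and 8.76 and 6.60 in lung (-4.95 ± 0.52), and FOSB fell by 3.76. MYC fell by 2.11 as deposited, and its difference was -0.20 after the second quantile normalization. The 3 rises were NR4A2, an orphan nuclear receptor (1.64 ± 0.37), JUND of the AP1 complex (1.04 ± 0.25) and KLF4 (0.95 ± 0.17). KLF4 read 11.97 to 12.37 on Low and 13.16 and 13.19 in lung.

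Of 18 inflammatory genes, 7 rose and 7 fell, with a median of 0.22 beside -0.09 for the band of their Low level. In that band 31.2% of all genes rose and 34.5% fell. The list median was -0.15 after median centring. IL11, a cytokine of bone and metastasis, read 9.75 to 9.91 on Low and 6.05 and 6.36 in lung (-3.64 ± 0.16), and the neutrophil chemokine gene CXCL8 fell by 2.93. NFKBIA, the inhibitor of NF-kB, read 10.38 to 10.78 on Low and 12.15 and 12.58 in lung (1.79 ± 0.20). CCL5 rose by 2.28 ± 0.27, IL1A by 2.07 ± 0.17 and IL1B by 1.95 ± 0.18. IL1A and IL1B lay under 5.36 on all Low arrays. They are among the 3 of the 18 tested genes that passed the filter only through the lung arrays. The filter thus fixes their part in the count of rises.

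Interferon response genes were split, as were all genes of their level. Of 28 tested, 9 rose and 12 fell, with a median of -0.11 beside -0.09 for the band of their Low level. Of all genes in that band, 31.2% rose and 34.5% fell. The list median was 0.25 after the second quantile normalization. The membrane antiviral genes IFITM3 and IFITM2 fell by 3.03 and 3.50. Within antigen processing, the immunoproteasome gene PSMB8 fell by 1.44 while PSMB9 rose by 1.91 and the peptide transporter gene TAP1 by 1.18. XAF1, a proapoptotic interferon target, had a mean of 3.92 on Low and read 6.25 and 6.79 in lung (2.60 ± 0.19). It is among the 4 of the 28 tested genes of this list that passed the filter only through the lung arrays. The filter thus fixes its part in the count of rises. B2M, the light chain of HLA class I, read 13.29 to 13.55 on Low, 11.03 on Lung 1233 and 5.80 on Lung Mix. Of 24 genes of TGF-beta and BMP signaling, 17 fell and 2 rose, with a median of -2.06 beside -2.70 for the band of their level. Its receptor genes TGFBR1, TGFBR2 and BMPR2 fell by 5.71, 3.91 and 2.85, and the target gene ID1 by 2.87. Of the signal transducers, SMAD4 fell by 3.16 and SMAD2 rose by 1.15 ± 0.19. The ligand genes TGFB1 (-0.16 ± 0.17) and BMP4 (-0.11 ± 0.18) did not pass the test.

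**Figure D4:**
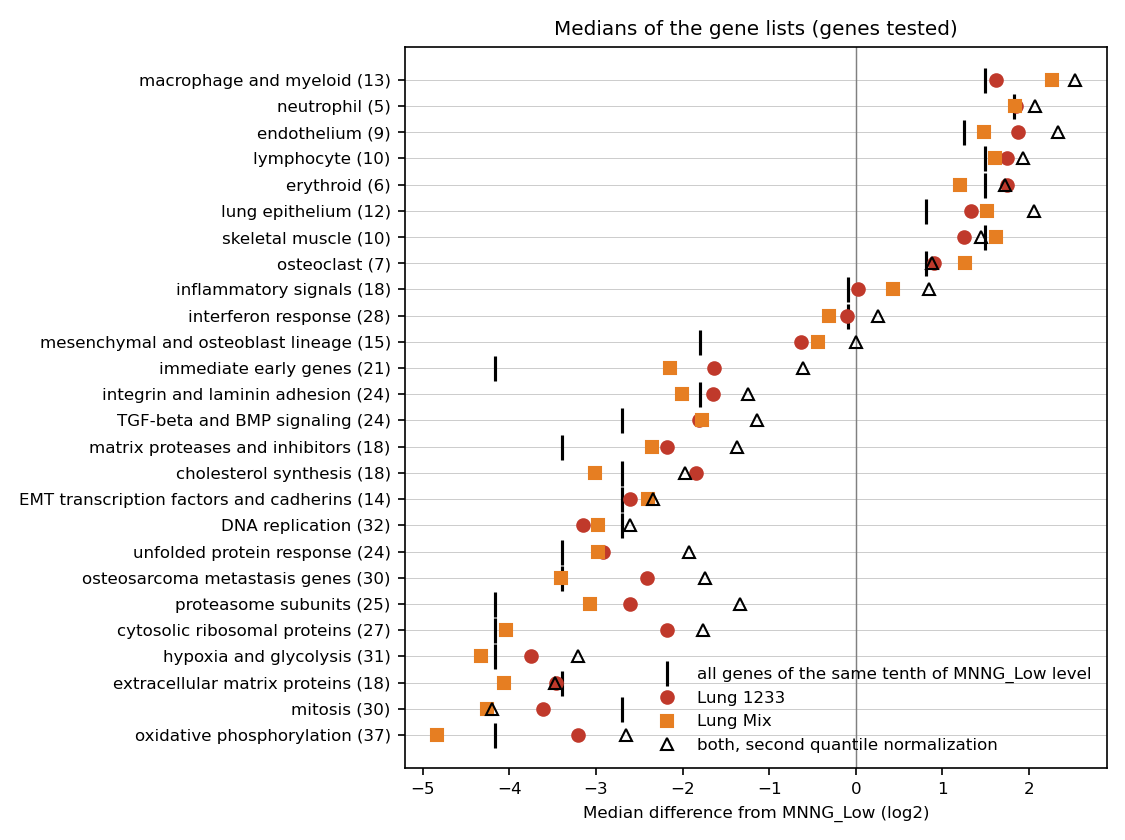
Median difference from MNNG_Low (log2) of the tested members of 26 gene lists, for each lung array and, as triangles, for both after a second quantile normalization. Vertical bars give the median of all genes in the band of the list's median Low level. Mitosis genes lie at -3.61 and -4.26 beside a bar at -2.70, and immediate early genes at -1.63 and -2.15 beside a bar at -4.17.

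Markers of other cell types were higher in lung, like dim genes as a whole. The probes are human, and RNA of a non-human host would register only by binding to them. All 15 macrophage and myeloid markers on the array were called higher in lung, as were 11 of 13 lung epithelium, 12 of 13 endothelium, 11 of 11 neutrophil, 11 of 13 lymphocyte, 6 of 6 erythroid, 11 of 15 skeletal muscle and 6 of 9 osteoclast markers, with 1 osteoclast marker lower. The same fit, run without a filter, called 47.1% of all genes higher, and 84.7% of the 7334 genes with a Low mean under 5.36 (median difference 1.28). The medians over all members on the array were 2.05 for macrophage, 1.64 for neutrophil, 1.60 for lymphocyte, 1.47 for erythroid, 1.44 for endothelium, 1.38 for lung epithelium, 1.29 for skeletal muscle and 1.03 for osteoclast. Many markers passed the filter only through their lung values, 7 of the 13 macrophage markers tested among them.

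Averaged over the list, the macrophage markers had a mean signal of 6.75 on Lung 1233 and 6.77 on Lung Mix, against 4.82 to 4.94 on Low and 5.34 to 5.80 on High. Lung epithelium stood at 6.76 and 6.88, against 5.45 to 5.61 on Low, and endothelium at 6.50 and 6.11, against 4.88 to 5.07. PTPRC, the pan-leukocyte CD45, read 6.33 and 5.71 in lung and 3.11 to 3.36 on Low. The surfactant gene SFTPC read 8.33 and 8.60 in lung and 6.50 to 6.81 on Low, and SFTPB rose by 0.75 ± 0.18. SCGB1A1 of club cells read 5.86 and 6.55 in lung and 3.51 to 3.66 on Low, while the lung factor gene NKX2-1 differed by -0.36 ± 0.44. Endothelial PECAM1 read 7.89 and 7.55 in lung and 5.89 to 6.18 on Low, and CDH5 read 5.30 and 3.94 in lung and 3.19 to 3.65 on Low.

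Among the brighter markers, SPI1, the myeloid master factor, read 9.72 on Lung 1233 and 8.14 on Lung Mix, against 5.69 to 6.12 on Low and 6.93 to 8.07 on High (3.06 ± 0.40 above Low). AIF1, a macrophage protein, read 9.50 and 9.53 in lung, 7.08 to 7.87 on Low and 8.86 to 10.33 on High. The beta globin gene HBB read 9.42 and 9.58 in lung and 6.74 to 7.19 on Low (2.57 ± 0.18). The part of host RNA in any of these values was not tested.

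**Figure D5:**
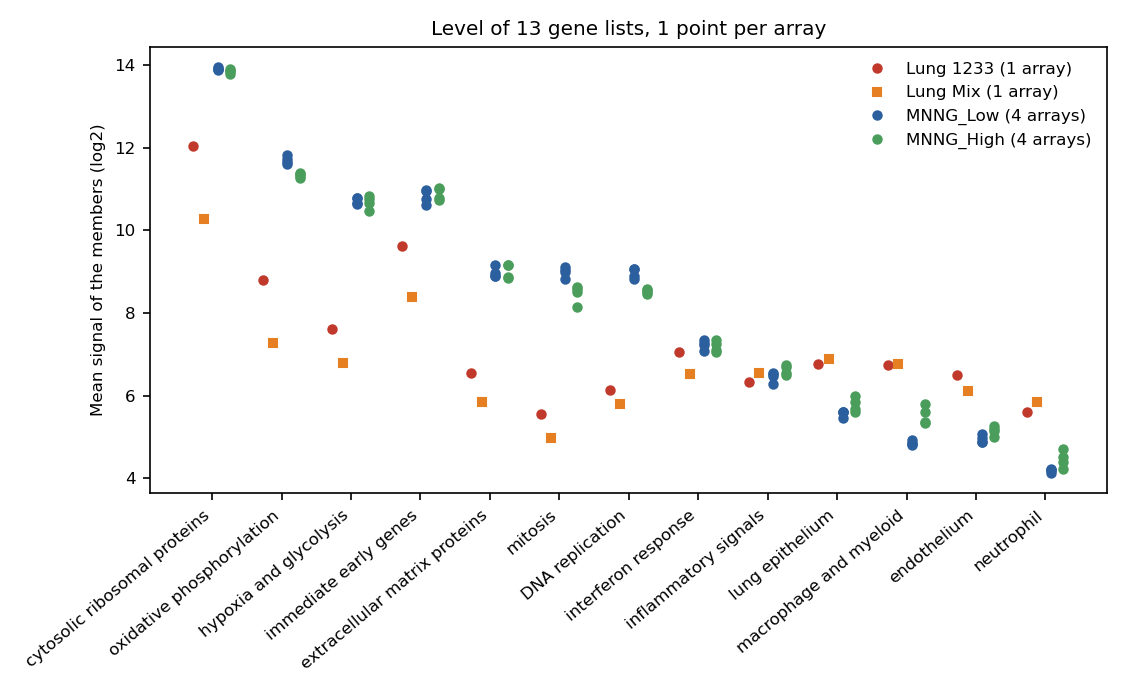
Mean signal (log2) of the members of 13 gene lists on each MNNG array. Lung 1233 and Lung Mix lie below all bone arrays for the 7 lists from ribosomal proteins to DNA replication, and above all bone arrays for the 4 marker lists on the right.

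Lung was compared with High as well, since all 6 of those arrays carry 1 date tag. Limma called 11557 of 15393 genes (75.1%), 6233 lower and 5324 higher (34.6%). After median centring 6711 were lower and 3730 higher. The balance turned after a second quantile normalization (5332 lower, 5746 higher) and without the filter (6277 lower, 7684 higher). At least 4-fold lower were 26.5% of genes and at least 4-fold higher 1.33%. The groups did not overlap for 79.8%. The largest falls among the genes named by the rule were in BNIP3 (-7.27 ± 0.32), PRNP (-6.81 ± 0.56), FAM3C (-6.81 ± 0.30), SRP9 (-6.78 ± 1.04), MAFF (-6.76 ± 0.30) and ANP32E (-6.72 ± 0.40). The corresponding rises were in HBE1 (3.86 ± 0.44), PLK3 (3.14 ± 0.35), ATP6V0D2 (3.07 ± 0.33), KCNA3 (2.87 ± 0.38), SH3TC1 (2.85 ± 0.29) and RNF180 (2.80 ± 0.48). Both comparisons share the lung arrays, so their likeness is not independent.

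Of the 12 largest rises against Low, all but HBE1 had a High mean between the Low and lung means. CELF2 read 10.21 to 11.71 on High, RNF5 8.69 to 10.71 and ZEB2 8.66 to 9.72, and CELF2 then differed from lung by 1.44 ± 0.39. HBE1, at 9.48 to 11.27 on High, did not share this order. IGF1 read 7.89 to 8.89 on High, overlapping its lung values. BNIP3, which fell, read 11.86 to 12.79 on High, overlapping Low. Against High, 28 of 30 mitosis genes, 25 of 31 hypoxia genes and 16 of 19 matrix genes fell, beside 40.5% of all genes. These lists hold bright genes, and no share for genes of like level was computed against High. Against Low, 91.5% of all genes with a Low mean of at least 9 fell.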

How the data were processed

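The values are deposited log2 signals per probe set. The submitters' processing notes name RMA as the authors' method, and its version and the set of arrays normalized together were not stated there. RNA was total RNA, labelled for 3' arrays per the labels' protocols. RMA brings arrays to one distribution, so a change that most genes share can be hidden, yet the lung arrays kept a narrower spread. The platform annotation gave 1 gene to 41097 of 54675 probe sets, several to 1801 and none to 11777. Each of 19775 genes was represented by its probe set of highest mean over 18 arrays. RefSeq (GRCh38.p14) held 19735 of them. A gene was tested if 2 or more of the 6 arrays compared reached 5.36, the table's median.

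Differences were fitted with limma 3.58.1 (lmFit, eBayes) in R 4.3.3 on the 6 arrays of each comparison, with Benjamini-Hochberg adjustment over all genes and a threshold of 0.05. A difference written a ± b is on the log2 scale with its standard error. Lists are described by counts and medians beside all genes in the same of 10 bands of Low level. The comparison, the lists and the tests were chosen with earlier results of these data known, and the 4-fold threshold after values were seen. Named genes were the 12 largest rises and falls against Low (6 against High) among called genes without overlap, with the same sign and call after a second quantile normalization and a mean of at least 7 in the brighter group, then 4 members of smallest p per list and defining markers. Other members are named for range, for exceptions or for known roles, after their values were seen. The procedure was tested on simulated data for lung against Low over 12441 genes. It recovered 75 of 100 genes changed by 2 log2 units and 98 of 100 changed by 4, with 9 false calls. In the simulation lung and Low shared the same spread for each gene, and few genes were changed. The data differ in both, so the simulated count of false calls need not hold for them. The number of arrays limits the precision. Alternatives were the normalization, the filter, the probe set rule, array weights, the arrays in the fit, the date tag and leaving out each array.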

Additional observations from a re-analysis of the deposited data

Results flagged for a closer look

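Within the groups of 4 bone arrays, 11 of 260 groups had 1 array whose gap to its nearest neighbour, as a share of the group's range, passed Dixon's critical value at the 95% level for 4 samples. Chance flags about 1 in 20 such groups. On High, MNNG-1231 stood apart for CPEB4 (a gap of 0.933 of the range, 11.10 against 10.13 to 10.20), GPI (0.857, lower) and ATF3 (0.853, lower). MNNG-1235 High stood apart for NFKBIA (0.91, lower), CALCR (0.872, lower) and the GAPDH 3' control (0.878, 14.29 against 14.22 to 14.23), and MNNG-1233 High for FCER1G (0.866, 6.43 against 5.75 to 5.84). On Low, MNNG-1231 stood apart for NDUFB10 (0.951, 11.73 against 11.54) and FCER1G (0.84, lower), MNNG-1232 for TIMP1 (0.866, higher) and MNNG-1233 for TGFBR1 (0.942, 9.86 against 9.36 to 9.39).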

How the results depend on the processing

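The count of genes called against Low was 12131 after a second quantile normalization (6284 higher), 12566 after median centring (4668 higher), 11484 with array weights and 13659 with all 18 arrays in the fit. It fell to 6638 of 7743 genes when a mean of at least 7 was required, with 5727 against High and 6840 genes without overlap under that filter, which tests fewer genes. With only MNNG-1231 Low it was 5607, a fit whose spread comes from the 2 lung arrays. Leaving out 1 array gave 12655 to 13555 against Low and 10253 to 11499 against High, and the difference of the interquartile range from Low was between -1.25 and -1.06. With 1 lung array left, that array is assumed to vary as Low does. The lung and Low arrays share 1 number, 1233. With the tumor number as a replicate block over the 10 MNNG arrays, the count was 13288 against Low and 12457 against High, and 13222 and 12406 without it. Medians turned for interferon genes after the second quantile normalization (0.25) and without probe sets of types _x_at and _s_at (0.40), for inflammatory genes after median centring (-0.15) and under the filter of 7 (-1.50), and for osteoclast markers after median centring (-0.30). Of the 26 list medians, 22 more moved by over the spread between the lung arrays after the second quantile normalization, among them proteasome (-3.00 to -1.33), ribosomal (-3.15 to -1.76) and immediate early genes (-1.73 to -0.61). Over all settings 111 of 439 moved. The cause was not tested. Of 421 values of named genes against Low, 409 stayed the same, 2 lost the call, 10 moved and 0 turned. The 2 were CPEB4 at 0.28 as the mean over probe sets, and SRP9 at -7.06 with only MNNG-1231 Low. The 421 include differences of Lung 1233 from MNNG-1233 Low alone, which have no call and gave the 10 that moved. The naming rule fixed in advance the direction of those differences and of fits that leave out arrays. It also fixed direction and call after the second quantile normalization. Few arrays, no detection calls and the unknown makeup of Lung Mix limit all of these values.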
